A study of Homo sapiens with 12 samples.

Results

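The HORMAD1 main effect sets the 6 samples that carry a HORMAD1 transgene against the 6 that do not, out of 12 samples in all. The 6 samples with HORMAD1 are 3 of the HORMAD1 line and 3 of the double line, which carries HORMAD1 and CT83. The 6 without HORMAD1 are 3 of the CT83 line and 3 of the control line, which carries a control transgene. CT83 status is thus the second factor, and the effect of HORMAD1 can be read in a background without CT83 (HORMAD1 line against control line) and in a background with CT83 (double line against CT83 line). These 2 comparisons share no sample.

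All 4 lines derive from HMLE, a human mammary epithelial culture made immortal by telomerase and the SV40 early antigens, and all were selected with puromycin. Messenger RNA was sequenced from each, with no further treatment. A single line was made per construct, so an effect of a transgene and any other difference between the lines cannot be told apart. The labels do not say whether the 3 samples of a line came from separate cultures, so the p-values measure the spread between these samples, which may be technical.

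HORMAD1 encodes a HORMA-domain protein of the meiotic chromosome axis. In germ cells it binds unsynapsed chromosomes, where it helps to bring in ATR and BRCA1, and the ATPase TRIP13 removes it once homologues have paired. It is a cancer/testis gene, silent in most somatic tissue and switched on in some tumours, among them basal-like breast cancers, and it has been linked there to altered homologous recombination and mismatch repair. CT83, also named KK-LC-1, is an X-linked cancer/testis gene.

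HORMAD1 lies on chromosome 1 at 150698060-150720888 on the minus strand (GRCh38). It was read at 203, 332 and 335 CPM (normalised CPM, read counts scaled to library size by TMM) in the HORMAD1 line and at 283, 313 and 347 CPM in the double line. It had 0 counts in each of the 3 samples of the CT83 line and of the control line. Every sample with HORMAD1 was thus far above every sample without it, and the sample labels held for this gene. The transcript averaged 302 ± 53.5 CPM over the samples with HORMAD1 (SD, n = 6), from 3008 to 3818 counts per sample. Set against a floor of 3 counts per sample, 0.225 to 0.288 CPM in the samples without HORMAD1, the lowest sample with HORMAD1 was at least 703-fold higher. An exact permutation test within CT83 backgrounds gave a two-sided p of 0.005, the smallest its 400 arrangements allow. The double line averaged 314 ± 31.8 CPM and the HORMAD1 line 290.0 ± 75.5 CPM (SD, n = 3 each), and an exact two-sided permutation test between them gave p = 0.8.

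The CT83 background was not equal in the samples with and without HORMAD1. CT83 was read at 86.7, 101 and 118 CPM in the double line, against 400, 446 and 724 CPM in the CT83 line, so the groups did not overlap. The mean of the double line was 19.5% of that of the CT83 line. The exact two-sided permutation p was 0.1, the smallest that 3 against 3 samples allow. CT83 had 0 counts in the HORMAD1 line and in the control line. In the background with CT83, the presence of HORMAD1 and a lower CT83 level therefore cannot be told apart.

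**Figure D1:**
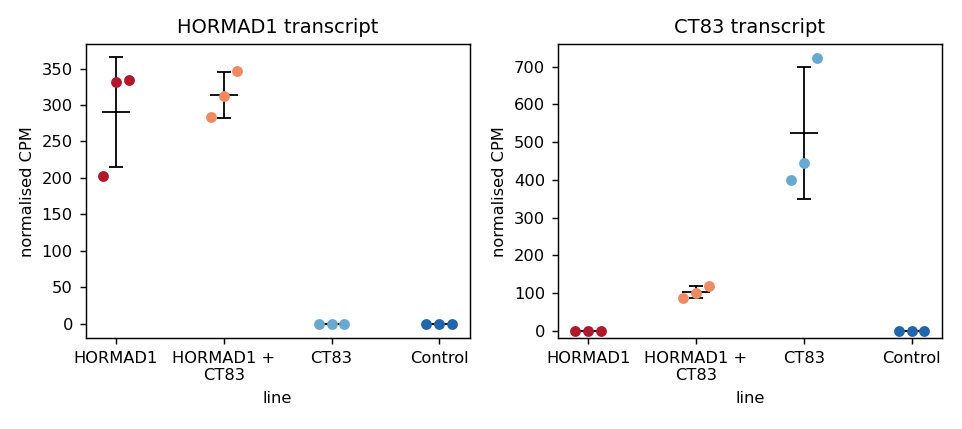
Normalised CPM of the HORMAD1 transcript (left) and the CT83 transcript (right) in each sample of the HORMAD1 line, the double line, the CT83 line and the control line; points are samples, the bar is the mean and the whiskers the SD of 3 samples. HORMAD1 sits between 203 and 347 CPM in the 6 samples with the transgene and at 0 in the 6 without, while CT83 in the double line stays at or below 118 CPM and reaches 400 CPM or more in the CT83 line.

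Total counts per sample ranged from 9898845 to 14159740. Some samples stood apart in how their values ran along transcript length. The slope of log2 CPM on log2 length, relative to the mean of all samples, was 0.043 in HORMAD1 replicate 1, 0.0418 in CT83 replicate 3 and 0.0215 in Control replicate 2. It lay between -0.04 and 0.0044 in the other 9 samples, with both of the lowest values in the double line. HORMAD1 replicate 1 differed from the other 2 samples of its line by chi-square values of 20.05 and 24.24 per degree of freedom, the highest such value in the series; the lowest between samples of a line was 2.44. Calls, same-sign shares and the list medians that turn on these samples are given with and without them below.

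Cell type markers were checked over the same samples. The 10 mammary epithelial markers summed to between 8390 and 10800 CPM with HORMAD1 and to between 9000 and 11000 CPM without it. Fibroblast markers summed to between 36.7 and 103 CPM with HORMAD1 and between 38.5 and 101 CPM without it, with DPT at 0 in all 12 samples. Immune markers summed to between 147 and 173 CPM with HORMAD1 and between 128 and 169 CPM without it, with CD3D, MS4A1 and NKG7 at 0 throughout. Of these 11 markers, 8 averaged under 1 CPM, and CSF1R, CD14 and CD68 were the highest. Endothelial markers summed to at most 1.69 CPM with HORMAD1 and 1.38 CPM without it. The ranges with and without HORMAD1 overlapped for each of these 4 lists. In RNA from whole cultures, fewer cells of a type and less RNA per cell cannot be told apart.

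HORMAD1 was the only gene called in the main effect. Over 15616 genes tested, 1 gene passed an adjusted p under 0.05 (0.0064%), and it was HORMAD1 itself, with a Benjamini-Hochberg adjusted p of 0.000244 in the quasi-likelihood test of edgeR. No endogenous gene was called as higher or lower. The same single gene was called in the background without CT83 (0.0064%) and in the background with CT83 (0.0064%). In the main effect, the other tools (DESeq2, limma-voom) likewise made 1 call each. DESeq2 called 2 genes in the background without CT83 and 3 in the background with it, and limma-voom called 1 and 2. At an unadjusted p under 0.05, 583 genes (3.73%) stood in the main effect. The same count was 284 genes (1.82%) in the background without CT83 and 1257 genes (8.05%) in the background with CT83.

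The absence of calls came with fairly narrow intervals, but a large difference could also stay uncalled. CT83 in the double line over the CT83 line had a log2 fold change of -2.36 (SE 0.27). Its groups did not overlap, yet its adjusted p by edgeR was 0.585. The 95% interval of the main-effect fold change lay within 2-fold in either direction for 93.4% of the genes tested (14577 genes), and within 1.5-fold for 76.8% (11998 genes). The SE had a median of 0.11 (log2) for the main effect and 0.15 within each background. Of 15614 genes other than the transgenes, 9 had a log2 fold change above 1 and 14 had one below -1, none of them called.

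HORMAD1 replicate 1 weighed on this count. Without that sample, 2695 genes had an unadjusted p under 0.05, where 15839 genes besides the transgenes were fitted. With all samples the count was 583 of 15616 (3.73%). Also without that sample, edgeR's quasi-likelihood test called 2 genes in the main effect, HORMAD1 and CXCL8. With HORMAD1 replicate 1, CT83 replicate 3 and Control replicate 2 all left out, it called 5 of 15667 genes (0.0319%), with HORMAD1 and CXCL8 higher, and with KTN1, EPB41L1 and CEBPB lower. The counts within backgrounds grew more in that fit, to 6 genes without CT83 (0.0383%), all higher, and to 73 genes with CT83 (0.466%), 42 higher and 31 lower, with HORMAD1 counted in both and CT83 among those lower. These 4 endogenous genes are named because of that call, after their values had been seen. With the length slope of each sample as a covariate no gene was called, and HORMAD1 itself had an adjusted p of 0.0532 by edgeR.

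CXCL8, which encodes the neutrophil chemokine interleukin-8, shows the part of that sample. It was read at 28.6, 98.1 and 104 CPM in the HORMAD1 line and at 47.2, 44.3 and 40.2 CPM in the double line, against 42.6, 41.3 and 39.3 CPM in the CT83 line and 50.4, 51.6 and 55.6 CPM in the control line. HORMAD1 replicate 1 was the lowest of all 12 samples and the other 2 of its line were the highest, while the double line overlapped the CT83 line. Over all samples its log2 fold change was 0.32 (SE 0.27) and its adjusted p 0.899 by edgeR. Without the 3 samples it was 0.50 (SE 0.06), with an adjusted p of 0.000616 by edgeR.

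The 3 genes that were lower without those samples had their highest value with HORMAD1 in the same sample. KTN1, which encodes the kinectin of the endoplasmic reticulum, was read at 225, 133 and 111 CPM in the HORMAD1 line and at 137, 143 and 136 CPM in the double line. Without HORMAD1, KTN1 stood at 155, 182 and 237 CPM in the CT83 line and at 155, 217 and 159 CPM in the control line. All samples with HORMAD1 but HORMAD1 replicate 1 thus lay below all samples without it. The other high values of KTN1, 237 and 217 CPM, were those of CT83 replicate 3 and Control replicate 2, which were also left out of that fit. EPB41L1, a membrane skeleton protein of the band 4.1 family, was also lower in all samples with HORMAD1 but HORMAD1 replicate 1. It was read at 27.2, 13.8 and 14.2 CPM in the HORMAD1 line and 11.9, 12.7 and 11.9 CPM in the double line. Without HORMAD1 it ran from 20.6 to 21.7 CPM in the CT83 line and from 15.7 to 22.7 CPM in the control line. CEBPB, a bZIP transcription factor, ran from 96.8 to 151 CPM with HORMAD1 and from 106 to 144 CPM without it. Over all samples the log2 fold changes were -0.32 (SE 0.18) for KTN1, -0.43 (SE 0.16) for EPB41L1 and -0.15 (SE 0.10) for CEBPB, each with an adjusted p of 0.899 by edgeR. Without the 3 samples they were -0.32, -0.58 and -0.29, with adjusted p-values of 0.046, 0.0411 and 0.046 by edgeR.

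Direction was next compared between the CT83 backgrounds. The HORMAD1 effect had the same sign in both for 7475 of 15614 genes, or 47.9%. Genes with an unadjusted p under 0.05 were no more alike: 132 of 283 such genes in the background without CT83 (46.6%) and 570 of 1255 in the background with CT83 (45.4%) had the same sign in the other one. Among 6191 genes with a mean log2 CPM of at least 5 the share was 49.7%. Across the 15614 genes the effects in the 2 backgrounds had a Pearson correlation of -0.12, given as a description, since genes are not independent replicates.

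This share moved most with HORMAD1 replicate 1. Without it, 65.5% of 15839 genes had the same sign in both backgrounds, and the correlation across genes was 0.31. Of 2386 genes with an unadjusted p under 0.05 in the background with CT83 in that fit, 80.2% had the same sign in the background without CT83. Without Control replicate 2 the share was 38.2%, without HORMAD1 replicate 3 it was 38.3%, and without HORMAD1 replicate 2 it was 40.6%. Without Control replicate 3 it was 55.8%, and leaving out any other single sample gave between 45.7% and 51.4%. Without all 3 samples with a high length slope it was 57.4%.

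The effects also ran differently along transcript length. Per doubling of length, the log2 fold change moved by -0.0306 in the background with CT83 and by 0.0056 in the background without CT83, over 15339 genes. Without HORMAD1 replicate 1 these slopes were -0.0301 and -0.018. After removal of the linear length trend from each effect, the same-sign share was 68.8% without HORMAD1 replicate 1 and 46.8% with all samples. What sets HORMAD1 replicate 1 apart was not tested.

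**Figure D2:**
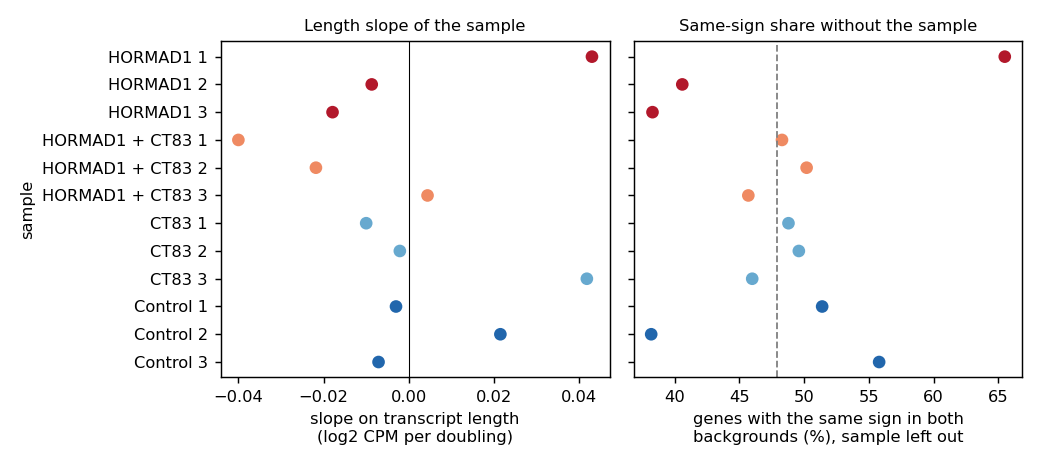
Left, slope of log2 CPM on log2 transcript length in each sample, relative to the mean of all samples; right, percent of genes whose HORMAD1 effect has the same sign in both CT83 backgrounds when that sample is left out, with the dashed line at 47.9% for all samples. HORMAD1 replicate 1 has the highest slope, 0.043, and its omission gives the highest share, 65.5%.

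**Figure D3:**
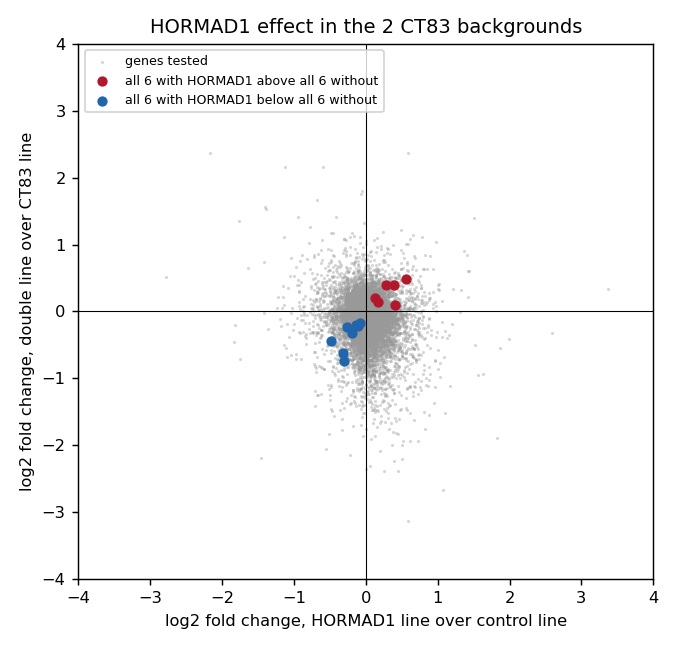
Log2 fold change of each gene tested in the HORMAD1 line over the control line (x axis) and in the double line over the CT83 line (y axis), with the transgenes beyond the axes. Grey points are genes, red points the genes read higher and blue points those read lower in all 6 samples with HORMAD1 than in all 6 without; the cloud is centred near 0 and runs longer along the y axis.

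Few genes kept their samples apart. In both backgrounds at once, 37 genes had all 3 samples with HORMAD1 above all 3 without (0.237%), 33 genes had all 3 below (0.211%), and 65 genes were separated in opposite directions (0.416%). Across all samples together, 7 genes had the 6 samples with HORMAD1 above the 6 without (0.0448%) and 8 genes had them below (0.0512%). These 15 genes are named below, after their values had been seen, and HORMAD1 is 1 of them. With the exception of HORMAD1, each had an adjusted p of 0.899 by edgeR, so their separation is a description of these samples.

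IL1R1 is the signalling receptor for interleukin-1. IL1R1 stood at 12.9, 10.5 and 12.2 CPM in the HORMAD1 line and at 10.9, 11.7 and 12.1 CPM in the double line, against 9.26, 9.42 and 7.75 CPM in the CT83 line and 9.4, 10.1 and 7.75 CPM in the control line. Every sample with HORMAD1 lay above every sample without it. Its log2 fold change was 0.39 (SE 0.11) in the main effect and 0.39 (SE 0.15) in each background. An antisense gene, IL1R1-AS1, overlaps it, and without knowledge of strand use the reads of the 2 genes cannot be told apart.

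MYC encodes a growth-promoting transcription factor. Its values were 364, 372 and 373 CPM in the HORMAD1 line and at 337, 352 and 329 CPM in the double line, against 396, 394 and 394 CPM in the CT83 line and 409, 407 and 380 CPM in the control line. All samples with HORMAD1 were lower, and those of the double line were lowest. The log2 fold change was -0.16 (SE 0.05), with -0.11 (SE 0.07) in the background without CT83 and -0.22 (SE 0.07) in the background with it.

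MAP3K12, a kinase upstream of JNK in stressed neurons, ran from 19.2 to 22.2 CPM with HORMAD1 and from 23.9 to 26.0 CPM without it. Its log2 fold change was -0.25 (SE 0.07), with -0.26 and -0.24 in the backgrounds without and with CT83. PDXK, which makes the active form of vitamin B6, ran from 133 to 144 CPM with HORMAD1 and from 146 to 154 CPM without it, a log2 fold change of -0.13 (SE 0.05). PIGT, a subunit of the transamidase that attaches GPI anchors, ran from 54.8 to 68.1 CPM with HORMAD1 and from 70.4 to 74.8 CPM without it, a log2 fold change of -0.16 (SE 0.06). In each of these 3 genes the difference is small, and the lack of overlap is the reason they were named. C17orf67 had a log2 fold change of -0.26 (SE 0.09), between 8.34 and 9.48 CPM with HORMAD1 and between 10.3 and 12.4 CPM without it. The remaining 3 lower genes, known here by the identifiers ENSG00000287553, ENSG00000286437 and ENSG00000288612, had log2 fold changes of -0.47, -0.46 and -0.53 at medians of 6.66, 1.99 and 1.29 CPM with HORMAD1.

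Of the other genes with all samples higher, PHKB encodes the regulatory beta subunit of phosphorylase kinase. It ran from 58.8 to 64.1 CPM with HORMAD1 and from 51.6 to 57.3 CPM without it, a log2 fold change of 0.15 (SE 0.06). KANSL1L had a log2 fold change of 0.25 (SE 0.09), from 11.4 to 13.4 CPM with HORMAD1 and from 8.48 to 11.1 CPM without it. The antisense RNA HSPA2-AS1, which overlaps ZBTB1 and HSPA2 on the other strand, ran from 29.3 to 32.6 CPM with HORMAD1 and from 26.5 to 29.2 CPM without it. The nearest samples of both groups almost touched in HSPA2-AS1. CBLL1-AS1 and the long noncoding RNA LINC01560 had log2 fold changes that came to 0.34 (SE 0.15) and 0.52 (SE 0.20), at medians of 5.3 and 1.71 CPM with HORMAD1. KANSL1L, PHKB, CBLL1-AS1 and MAP3K12 also overlap a tested gene on the other strand, and C17orf67 overlaps TRIM25 on the same strand, so their reads are uncertain.

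**Figure D4:**
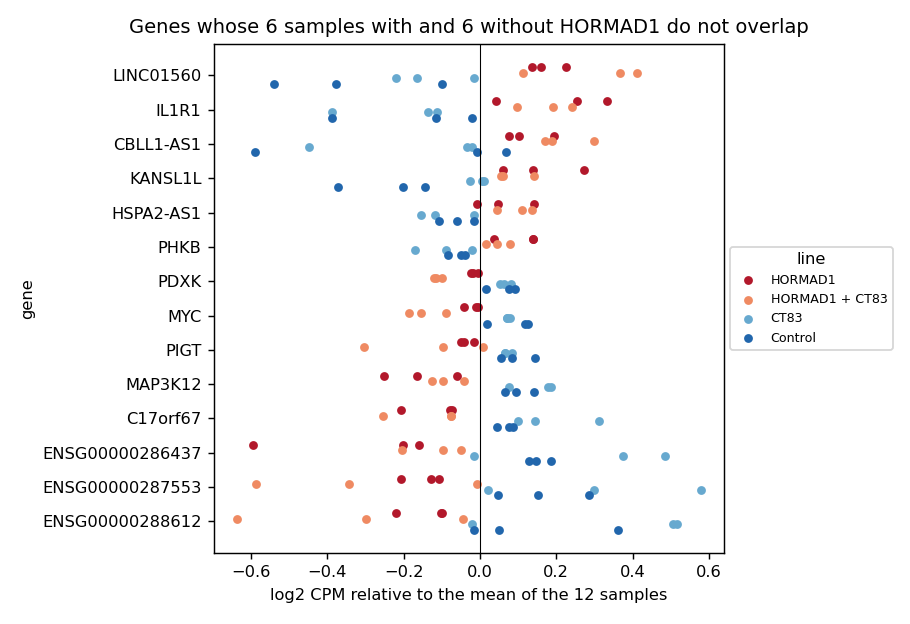
Log2 CPM relative to the mean of all 12 samples for the 14 endogenous genes whose 6 samples with HORMAD1 (red and orange points) do not overlap the 6 without (light and dark blue points); each point is a sample. The 6 genes at the top were higher with HORMAD1 and the 8 below were lower, most by less than 0.5 between group means.

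The other genes nearest to the threshold were taken in order of unadjusted p, among those with the same sign in both backgrounds and a mean log2 CPM of at least 2. None was called, and each had an adjusted p of 0.899 by edgeR. Among those with higher values, SDR16C5, a retinol dehydrogenase of epithelia, ran from 4.7 to 7.52 CPM (median 5.92) with HORMAD1 and from 2.96 to 5.51 CPM (median 4.12) without it. Its log2 fold change was 0.50 (SE 0.13). CYP1A1, the cytochrome P450 induced through the aryl hydrocarbon receptor, had the largest fold change of this group. It ran from 7.45 to 14.2 CPM (median 10.6) with HORMAD1 and from 3.86 to 9.28 CPM (median 6.35) without it, a log2 fold change of 0.74 (SE 0.21). In both genes the groups overlapped.

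The potassium channel subunit KCNS3 had a log2 fold change of 0.44 (SE 0.13), from 7.28 to 10.2 CPM with HORMAD1 and from 5.83 to 7.52 CPM without it. The steroid dehydrogenase HSD17B11 had one of 0.38 (SE 0.11), and FERMT2, the integrin activator kindlin-2, one of 0.23 (SE 0.07). NECAP2, an endocytic adaptor, ran from 71.0 to 83.0 CPM with HORMAD1 and from 60.0 to 74.5 CPM without it, a log2 fold change of 0.21 (SE 0.06), and the lowest value with HORMAD1 was again HORMAD1 replicate 1. REEP3 (0.23), BLZF1 (0.28), LINC01806 (0.35) and MYL12-AS1 (0.21) completed the list of higher genes. MYL12-AS1 lies antisense to MYL12A and MYL12B, which are highly expressed light chains of myosin, so its counts are uncertain.

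On the lower side, VPS9D1 ran from 23.8 to 34.6 CPM (median 27.5) with HORMAD1 and from 32.2 to 49.0 CPM (median 36.6) without it, a log2 fold change of -0.41 (SE 0.11). TRIB1, a pseudokinase that promotes degradation of C/EBP factors, had one of -0.36 (SE 0.11), with -0.52 in the background without CT83 and -0.21 with it. LRP8, a receptor for reelin and apolipoprotein E, had one of -0.28 (SE 0.08), and the kinase PNCK one of -0.34 (SE 0.10). For some genes the value was larger in the background with CT83. SLC6A6, the taurine transporter, had a log2 fold change of -0.35 there and -0.03 without CT83, and SEMA4D, a semaphorin that signals through plexin B1, had -0.51 and -0.04. The difference between backgrounds was not called for either. SLC25A22, SLC12A9, FHOD1 and REPIN1-AS1 had main-effect log2 fold changes of -0.22, -0.27, -0.27 and -0.38. Over 23 alternative settings, none of these genes on either side changed sign and none was called. They had been chosen for a small p and a shared sign in these same samples, so the constant sign is no separate evidence.

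None of the genes that work with HORMAD1, or that it has been linked to, was called. TRIP13 was read at 101, 123 and 128 CPM in the HORMAD1 line and at 120.0, 113 and 111 CPM in the double line, against 117, 110.0 and 106 CPM in the CT83 line and 122, 111 and 118 CPM in the control line. The 4 lines overlapped, and the log2 fold change was 0.02 (95% interval -0.11 to 0.16). HORMAD2, the meiotic paralogue, had no counts in 11 samples and 0.0887 CPM in 1 sample of the double line, and did not pass the filter on low counts. Of 36 meiotic axis, synapsis and recombination genes found in the files, 13 passed that filter, 0 were called in either direction, and their median log2 fold change was -0.04, beside 0.00274 over all genes tested.

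The homologous recombination list had 39 tested members, 26 above 0 and 13 below, with a median log2 fold change of 0.05 and 0 called in either direction. BRCA2, a mediator of homologous recombination, had a log2 fold change of -0.15 (95% interval -0.40 to 0.09). BRCA1 was read at 70.3, 47.8 and 39.0 CPM in the HORMAD1 line and at 39.8, 41.7 and 46.9 CPM in the double line, against 47.7, 50.8 and 64.6 CPM in the CT83 line and 46.8, 55.4 and 42.5 CPM in the control line. The 2 highest values were HORMAD1 replicate 1 and CT83 replicate 3, the 2 samples with the steepest length slope. BRCA1 had a log2 fold change of -0.11 (-0.41 to 0.18), with 0.12 without CT83 and -0.35 with it. The helicase MCM9 had one of 0.08 (-0.09 to 0.26), while its partner MCM8 stayed at or below 1.35 CPM and was not tested.

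In the mismatch repair list, 3 of 10 tested members lay above 0 and 7 below, the median was -0.03 and 0 were called. The end joining list had 22 tested members and a median of -0.02, with 0 called and 4 at an unadjusted p under 0.05: LIG4, the ligase of the pathway, at 0.21, and POLM, PAXX and RIF1 at -0.38, -0.16 and -0.13. In the list of ATM and ATR checkpoint genes, 15 of 20 lay above 0, the median was 0.03 and 0 were called. Only 7 of the 20 had the same sign in both backgrounds (35.0%, beside 47.9% of all genes tested). ATR itself had a log2 fold change of -0.04 (-0.18 to 0.11), its effector CHEK1 0.06 (-0.10 to 0.22), and RAD17, which loads the checkpoint clamp, 0.20 (SE 0.08). The 11 tested HORMA domain and spindle checkpoint genes had a median of 0.02 and 0 calls. The p53 targets had a median of 0.01 over 25 genes with 0 calls, and CDKN1A, the cell cycle inhibitor p21, ran from 157 to 193 CPM with HORMAD1 and from 155 to 192 CPM without it. DNA replication genes (33 tested, median 0.04) and mitosis genes (26 tested, median 0.03) also had 0 calls. Other cancer/testis genes were mostly too low to test: 4 of 40 passed the filter, and 0 were called.

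No member of any of the 30 lists was called in the main effect, and the list medians stayed between -0.17 and 0.13 wherever members were tested. Among the 27 lists with at least 5 members tested, the medians farthest from that of all genes belonged to Notch genes (-0.17), interferon-stimulated genes (0.10) and keratinocyte differentiation genes (-0.09). Of 14 Notch genes tested, 3 lay above 0 and 11 below. Their median was 0 without CT83, with 7 members above 0 and 7 below, and -0.15 with CT83, with 2 above and 12 below. Without HORMAD1 replicate 1 the medians were -0.32 and -0.16. NRARP, a Notch-induced feedback inhibitor, was read at 23.0, 27.8 and 30.4 CPM in the HORMAD1 line and at 31.6, 45.6 and 22.7 CPM in the double line, against 39.6, 35.4 and 38.1 CPM in the CT83 line and 35.5, 41.8 and 38.6 CPM in the control line. The HORMAD1 line lay wholly below the control line, while the double line overlapped the CT83 line. Its log2 fold change was -0.35 (SE 0.14). The ligand JAG1 had -0.16 (SE 0.07), with -0.31 without CT83 and 0 with it, and the DNA-binding partner RBPJ had 0.16 (SE 0.07). These 3 had an unadjusted p under 0.05, and an adjusted p of 0.899 by edgeR.

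Interferon-stimulated genes had 22 of 28 tested members above 0, with a median of 0.04 without CT83 and 0.22 with it. Without HORMAD1 replicate 1 the median without CT83 was -0.04. ISG15, a ubiquitin-like modifier, ran from 36.4 to 44.2 CPM with HORMAD1 and from 29.9 to 39.2 CPM without it, a log2 fold change of 0.15 (SE 0.07), and HERC6 and IFI6 had 0.14 and 0.28. In the keratinocyte differentiation list, 16 of 20 members lay below 0 in the main effect. Only 8 had the same sign in both backgrounds (40.0%, beside 47.9% of all genes tested). The cornified envelope genes SPRR1B and IVL had log2 fold changes that came to -0.37 (SE 0.15) and -0.84 (SE 0.35), while the protease KLK5 had 0.17 (SE 0.08). SPRR1B ran from 9.44 to 23.0 CPM with HORMAD1, lowest in HORMAD1 replicate 1, and from 19.9 to 27.8 CPM without it, highest in CT83 replicate 3. IVL was low, from 1.84 to 4.21 CPM with HORMAD1 and from 3.03 to 12.2 CPM without it. Its highest value was also in CT83 replicate 3, and its groups overlapped.

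Some lists had medians on opposite sides of 0 in the 2 backgrounds, and for some of them this turned on HORMAD1 replicate 1. NF-kB and inflammatory genes had a median of 0.21 without CT83 and -0.08 with it, and 11 of 29 members kept their sign. These medians were 0.13 and -0.09 without HORMAD1 replicate 1. IL1A, which encodes interleukin-1 alpha, was read at 197, 194 and 172 CPM in the HORMAD1 line, against 140.0, 133 and 146 CPM in the control line. In the other background it was read at 155, 127 and 165 CPM in the double line, against 155, 154 and 127 CPM in the CT83 line. The HORMAD1 line lay above the control line in all samples, whereas the double and CT83 lines overlapped. The log2 fold changes were 0.43 (SE 0.10) and 0.03 (SE 0.10). BIRC3, an inhibitor of apoptosis and an NF-kB target, had 0.43 without CT83 and -0.17 with it. The cytokine gene CSF2 had 0.57 (SE 0.46) without CT83 and 0.53 (SE 0.51) with it. It was low, at 1.86 to 7.91 CPM with HORMAD1 and 1.99 to 4.89 CPM without it, and overlapped in both backgrounds.

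Mesenchymal genes had medians of -0.24 without CT83 and 0.20 with it, and 5 of 25 kept their sign. The medians were -0.40 and 0.19 without HORMAD1 replicate 1. VIM, the intermediate filament vimentin, was read at 245, 229 and 240.0 CPM in the HORMAD1 line, against 286, 289 and 313 CPM in the control line. Vimentin transcripts stood at 275, 363 and 322 CPM in the double line, against 234, 216 and 341 CPM in the CT83 line. The HORMAD1 line was thus lower than the control line in all samples, while the double and CT83 lines overlapped. The log2 fold changes were -0.31 (SE 0.14) and 0.28 (SE 0.14). The 6 tested fibroblast markers had medians of -0.58 and 0.41, and the summed fibroblast markers ran from 36.7 to 54.7 CPM in the HORMAD1 line and from 49.2 to 101 CPM in the control line. In the other background they ran from 46.4 to 103 CPM in the double line and from 38.5 to 55.6 CPM in the CT83 line. The part of other cell types in the mesenchymal values was not tested.

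The 54 cytosolic ribosomal protein genes tested had medians of -0.02 without CT83 and 0.15 with it, and 13 kept their sign. Both medians were above 0, at 0.05 and 0.15, without HORMAD1 replicate 1. RPL15 had a main-effect log2 fold change of 0.12 (SE 0.08), and RPS27 and RPS25 had 0.12 and 0.11. Immediate early genes had medians of 0.09 without CT83 and -0.15 with it. Both were below 0, at -0.07 and -0.15, without HORMAD1 replicate 1. In that list MYC, FOSB (-0.79, SE 0.28), IER5 (-0.15) and KLF6 (-0.16) lay below 0 at an unadjusted p under 0.05, and KLF10 (0.17) lay above it. FOSB overlaps ERCC1 on the other strand. Unfolded protein and integrated stress response genes had a median of -0.05 in the main effect, with 16 of 22 members below 0. It was -0.11 without CT83, with 19 members below 0, and 0.02 with CT83, with 16 above 0. Without HORMAD1 replicate 1 the main-effect median was -0.01 and those in the backgrounds were -0.03 and 0.01. In this list HSP90B1, the chaperone GRP94, had a log2 fold change of -0.18 (SE 0.07), and DNAJB9, a cochaperone of BiP, had -0.23 (SE 0.17).

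Mammary identity genes showed no call either. Basal genes had a median of -0.06 (24 tested, 6 above 0) and luminal genes one of -0.05 (12 tested, 4 above 0). The basal keratins KRT5 and KRT14 had log2 fold changes of -0.03 (-0.17 to 0.11) and -0.04 (-0.40 to 0.33), and the luminal keratin KRT8 had -0.01 (-0.18 to 0.16). TP63, the master regulator of basal cells, had 0.01 (-0.12 to 0.14), and the adhesion proteins EPCAM and CDH1 had -0.04 (-0.20 to 0.13) and -0.08 (-0.24 to 0.07). Of the other basal genes, CAV1 had 0.16 (0 to 0.31), EGFR -0.20 (-0.46 to 0.05) and LAMA3 -0.28 (-0.67 to 0.1). The intervals of the keratins, TP63, EPCAM and CDH1 reach at most 0.40 on the log2 scale from 0. Those of EGFR and LAMA3 reach further.

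**Figure D5:**
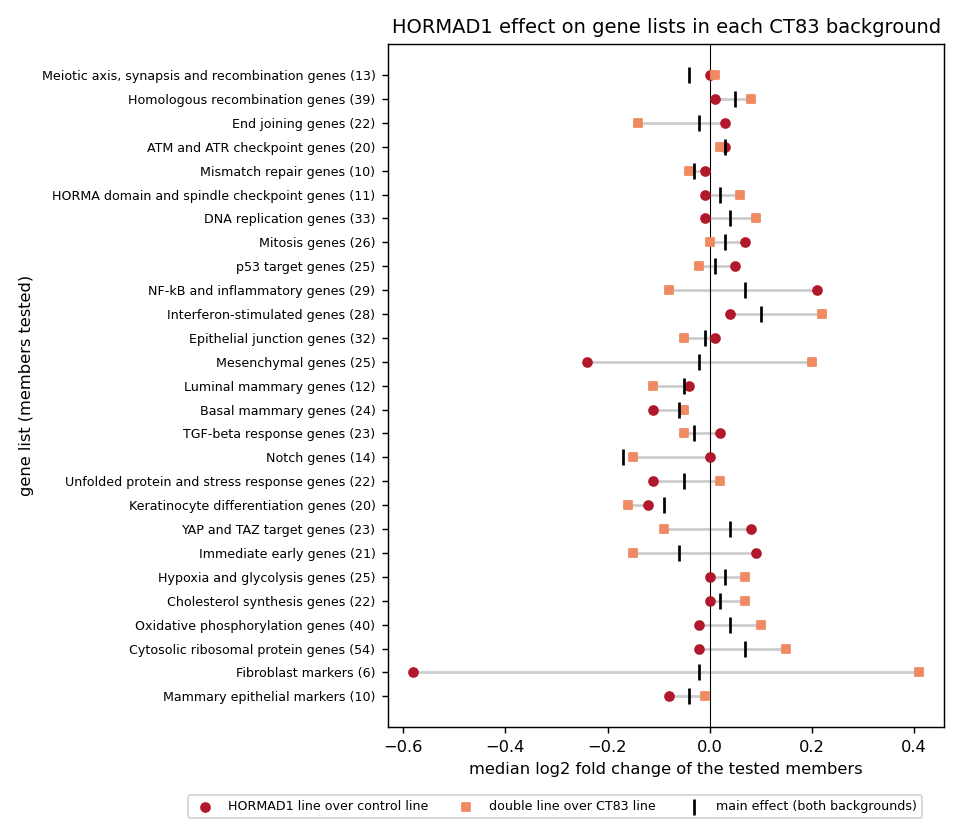
Median log2 fold change of the tested members of each of the 27 gene lists with at least 5 members tested, for the HORMAD1 line over the control line (circles), the double line over the CT83 line (squares) and the main effect (black ticks); the number tested stands in brackets. NF-kB and mesenchymal genes and the fibroblast markers lie on opposite sides of 0 in the 2 backgrounds, with and without HORMAD1 replicate 1, as do immediate early genes with that sample included; keratinocyte differentiation genes lie below 0 in both.

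The difference of the HORMAD1 effect between the CT83 backgrounds was tested directly, and 0 of 15616 genes (0%) were called in the quasi-likelihood test of edgeR after Benjamini-Hochberg adjustment. At an unadjusted p under 0.05 there were 703 genes (4.5%). The median SE of this difference was 0.22 on the log2 scale. DESeq2 called 3 genes and limma-voom 0. Without HORMAD1 replicate 1, CT83 replicate 3 and Control replicate 2, the same edgeR test called 22 of 15667 genes (0.14%), 15 with a positive and 7 with a negative difference.

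The 4 genes with the smallest p for this difference had an adjusted p of 0.841 by edgeR. Secreted antagonists stood among them. HHIP, which binds hedgehog ligands, was read at 0.202, 0.0964 and 0.351 CPM in the HORMAD1 line, against 2.05, 0.437 and 0.506 CPM in the control line. In the background with CT83 it was read at 2.22, 3.07 and 5.54 CPM in the double line, against 0.514, 0.432 and 1.15 CPM in the CT83 line. The samples with HORMAD1 were all lower in the background without CT83 and all higher in the background with it, at very low levels. GREM1, an antagonist of bone morphogenetic proteins, had log2 fold changes of -1.13 (SE 0.52) without CT83 and 2.16 (SE 0.53) with it.

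SRGN, the proteoglycan serglycin, had log2 fold changes of -0.60 (SE 0.43) without CT83 and 2.16 (SE 0.43) with it. It was read at 5.86, 6.14 and 11.6 CPM in the double line, against 2.06, 2.25 and 0.861 CPM in the CT83 line. The fourth, ENSG00000288528, had 112, 113 and 103 CPM in the HORMAD1 line, against 65.8, 85.1 and 70.9 CPM in the control line. It had 66.8, 58.7 and 67.6 CPM in the double line, against 78.3, 83.9 and 68.1 CPM in the CT83 line. Its samples with HORMAD1 were all higher in the background without CT83 and all lower in the background with it, and the difference of the log2 fold changes was -0.82 (SE 0.15).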

How the data were processed

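RNA of 4 HMLE-derived lines was sequenced, with 3 samples per line. The submitters' processing notes name STAR 2.7.5c, Trimmomatic 0.39, SAMtools and Picard as tools, and hg38 and hg19 as builds with no role for either. For the counting tool, the annotation and strand use, nothing was given in the sources used here. The authors deposited expected counts (estimated counts that need not be whole) for 61533 gene entries per sample. The design had assumed whole counts. The values were rounded, which changed 6.75% of them by at most 0.5, and the same test was kept. ERCC RNA was added per the labels' protocols, but 0 ERCC entries were found in the files. Symbols matched 61518 identifiers, and 58356 had GRCh38 coordinates in GENCODE 29.

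With edgeR 4.0.16 in R 4.3.3, filterByExpr (minimum count 10) kept 15616 genes, which were scaled by TMM. The robust quasi-likelihood fit used the 12 samples, a mean for each line, and left 8 residual degrees of freedom. The main effect is the mean of both background effects. A call is a Benjamini-Hochberg adjusted p under 0.05 over all genes tested, and log2 CPM used a prior count of 2. The model was tested on simulated data. The simulated counts held no outlying sample and no length trend, so that test does not cover these features of the data. The floor of 3 counts covers counting error only.

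Members, lists, markers and the naming rule were chosen with earlier results of these data known. The rule took the transgenes, called genes, the genes with the smallest unadjusted p in each direction to a total of 12, up to 3 members of each of the 8 lists with the farthest medians (at least 5 members tested), 16 genes linked to HORMAD1 or mammary identity, and 4 genes for the difference between backgrounds. Genes outside it are named as such or as list members with an unadjusted p under 0.05. Some single genes of the rule are not reported here. Overlapping and antisense genes are uncertain.

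Alternatives were DESeq2 1.42.0 and its size factors, upper-quartile scaling, library size alone, limma-voom (limma 3.58.1), no filter, CPM of at least 1 in 6 samples, an adjusted p under 0.01, the replicate block, an additive model, only the samples compared, a length-slope covariate, and samples left out. The length-trend removal, and the counts of genes at an unadjusted p under 0.05 or separated with samples left out, were chosen after seeing the data.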

Additional observations from a re-analysis of the deposited data

Results flagged for a closer look

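In 13 of 159 groups of 6 samples of named genes (with or without HORMAD1), 1 sample lay far from the other 5. For 6 independent values of a normal distribution, chance gives this in about 1 in 20 groups. The groups here join samples of different lines and share samples across genes, and many genes were chosen by their values. That rate is therefore only a rough guide. HORMAD1 replicate 1 was the outlying sample in 6 of the 13, but KTN1 and EPB41L1 are named only for a call made without it and other samples. Their place in this count is thus set by how they were chosen. HORMAD1 replicate 1 was low for NECAP2 (71.0 CPM) and SPRR1B (9.44 CPM), and high for CEBPB (151 CPM), BRCA1 (70.3 CPM), KTN1 (225 CPM) and EPB41L1 (27.2 CPM). Double replicate 3 was low for HSP90B1 (465 CPM) and PIGT (54.8 CPM), and HORMAD1 replicate 2 was low for ENSG00000286437 (1.45 CPM). Among the samples without HORMAD1, CT83 replicate 3 was high for SPRR1B (27.8 CPM) and C17orf67 (12.4 CPM), CT83 replicate 2 was low for ISG15 (29.9 CPM), and Control replicate 2 was high for PIGT (74.8 CPM).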

How the results depend on the processing

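Counts of called genes are small, so a change of 1 gene is a large ratio. Leaving out 1 sample at a time gave 1 to 2 calls in the main effect and in each background and 0 for the difference. It gave 309 to 2695 genes at an unadjusted p under 0.05 in the main effect, beside 583 of 15616 (3.73%) with all samples. The HORMAD1 level was 293 to 322 CPM. The number of genes with the same sign in both backgrounds was 6067 to 10371 in those fits, and 11649 without a low-count filter, where more genes were tested. Without Control 2, CT83 3 and HORMAD1 1 together there were 5 calls in the main effect, 6 without CT83, 73 with CT83 and 22 for the difference. In that fit 1877 of 15667 genes had an unadjusted p under 0.05 in the main effect. With fewer samples to separate, 1216 genes were separated the same way in both backgrounds in place of 70, and 633 in opposite directions in place of 65. With the length-slope covariate there were 0 calls in the main effect, 0 without CT83, 3 with CT83 and 1 for the difference. DESeq2 gave 2 calls without CT83, 3 with CT83 and 3 for the difference. limma-voom gave 2 with CT83. No filter gave 0 with CT83 and 2 for the difference. A fit of only the 6 samples compared gave 0 without CT83. The causes were not tested. Same-numbered samples of different lines had correlations of -0.354 to 0.351, and other pairs had -0.442 to 0.485. The values thus showed no pairing by number, but a shared batch was not tested. The replicate block gave 2 calls with CT83, 1 in the main effect, 1 without CT83 and 0 for the difference.

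Genes near 0 and not called took the opposite sign in some settings. Without the 3 samples the log2 fold changes were 0.05 for EPCAM, -0.07 for TP63, 0.08 for VIM, 0.03 for KRT5, 0.09 for KRT8, 0.04 for CDH1 and 0.05 for KRT14. With the covariate they were -0.03 for TRIP13, -0.02 for CDKN1A, 0.05 for VIM and 0.02 for BRCA1. Leaving out 1 sample gave -0.08 to 0.02 for EPCAM, -0.02 to 0.03 for TP63, -0.01 to 0.07 for TRIP13, -0.02 to 0.05 for CDKN1A, -0.08 to 0.10 for VIM, -0.07 to 0.01 for KRT5, -0.06 to 0.05 for KRT8, -0.12 to 0.08 for KRT14 and -0.13 to 0.64 for HHIP. Of 27 list medians, 17 took the opposite sign in at least 1 of 23 settings. Those of Notch, interferon-stimulated, NF-kB and keratinocyte differentiation genes did not. Nor did those of homologous recombination, ATM and ATR checkpoint, mismatch repair, DNA replication, unfolded protein and cholesterol synthesis genes. For NF-kB genes the main-effect median of 0.07 lay between 0.21 without CT83 and -0.08 with it.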
